A study of Mus musculus with 72 samples.

Results

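The 34 genes described here encode the enzymes of cholesterol and fatty acid synthesis, their regulators and the transporters that export sterol from the cell. They were given as a list of symbols, matched to Ensembl gene identifiers in a table of 50600 genes, and a gene counted as measured in a line when at least 3 of its libraries held 10 or more reads. All 34 were measured in lines 1057, 1064, 1181-Grpr and 1181-Ctrl, and 33 in 1014-Grpr and 1014-Ctrl, where Abcg1 fell below that minimum. The list and the groups of roles used below were not chosen by any value of these libraries, but they were chosen with earlier results of the same data known.

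Cells make cholesterol from acetyl-CoA through mevalonate, squalene and a chain of sterol intermediates, and the same acetyl-CoA feeds fatty acid synthesis. When sterol in the endoplasmic reticulum is low, SCAP escorts the SREBP factors (encoded by Srebf1 and Srebf2) to the Golgi, where they are cut and released to switch on the genes of synthesis, while INSIG proteins hold them back when sterol is plentiful. The exporters ABCA1 and ABCG1 answer in the opposite way, because the oxysterol-sensing LXR factors raise them when sterol accumulates. Cells kept in low serum take up little lipoprotein and lean on their own synthesis.

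The study asked how mouse melanoma lines respond to gastrin-releasing peptide (GRP) through its receptor GRPR. Lines 1057 and 1064 carried Tyr::NRASQ61K/°, Cdkn2a-/-, Tyr::CreA/° and Cdh1dF/dF, came from females and were labelled GRPR positive, while 1181-Grpr and 1181-Ctrl were male, carried Tyr::NRASQ61K/°, Cdkn2a-/- and Cdh1dF/dF without the Cre, and held CMV::Grpr/tGFP or CMV::tGFP, and 1014-Grpr and 1014-Ctrl were female, carried Tyr::NRASQ61K/° and received the same pair of vectors. Tyr drives expression in melanocytes and CMV in most cells, and the vectors were introduced by transfection and selection, so that each derived line stands for 1 parental line. Every line was starved for 18 h in 0.5% serum and then treated for 4 h with 0.1% DMSO (mock), 10 nM GRP, 1 µM of the GRPR antagonist RC-3095 (RC) or both (GRP+RC), with 3 replicates per group and 72 libraries in all. The labels do not say whether replicates were separate cultures, while the study's methods describe its cell culture experiments in general as done in biological replicates. The p-values below measure the spread between these libraries. In bulk RNA a change in the level per cell and a change in the share of cells that carry a transcript cannot be told apart.

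Library totals ran from 19512882 to 46862053 reads (median 28112904.5). Melanocyte markers were expressed in every line (7 of 7 over 1 TPM, the authors' length-scaled transcript level) and the immune and keratinocyte markers were at or near 0 (summed level at most 2.22 TPM, in the keratinocyte list of 1064; the endothelial list reached 4.70 TPM in 1057). Grpr reached 214 to 332 TPM in 1057, 539 to 1560 in 1064, 155 to 842 in 1014-Grpr and 12.4 to 123 in 11 of 12 1181-Grpr libraries, and was at most 0.14 in the control lines apart from 1 library. Cdh1 was at most 0.08 TPM in 1057 and 1064, 7.84 to 22.3 in 1181-Grpr and 1181-Ctrl and 0.52 to 4.05 in 1014-Grpr and 1014-Ctrl, leaving out the 2 libraries described next, so the transcript was present in 1181-Grpr and 1181-Ctrl under the same Cdh1dF/dF label as in 1057 and 1064, which goes against reading that label as a loss of Cdh1 in them. A pair of libraries went against their labels: the library labelled 1014-Ctrl mock 2 held Grpr at 69.8 TPM and the Y-linked Ddx3y at 45.3, and the library labelled 1181-Grpr GRP+RC 2 held neither and had Xist at 162 (both are called discordant below). The other 11 1181-Grpr libraries carried both Ddx3y (27.4 to 45.0 TPM) and Xist (39.7 to 53.8), and Dct at 8980 to 9500 against 281 to 567 in 1181-Ctrl, and the part of these differences in the results was not tested. Results that rest on the discordant libraries are given with and without them. Counts of members from alternative fits that stand without a share of all genes show only how far a count moved. They are not set against the background.

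Upstream sequences of the genes were taken from RefSeq on GRCm38.p6 (250 bases before to 50 after each start site), which held 34 promoters for 26 of the 34 genes. The letters of the sterol response element described for SREBP, TCACNCCAC, of the NF-Y box, CCAAT, and of the E-box that bHLH factors recognise, CACGTG, were searched on both strands. CCAAT was in 61.8% of the 34 promoters against 37.4% of all 32851, CACGTG in 20.6% against 7.15%, and TCACNCCAC in 2.94% against 1.24%, which here is 1 promoter, that of Hmgcs1. These are matches of letters, not shown sites. The 6 stretches below belong first to Hmgcs1, which holds the single TCACNCCAC match, and to Insig1, whose level separated by replicate number. The others are of Hsd17b7, Srebf2, Mvk and Abca1, among the 7 genes that passed with GRP in both 1057 and 1014-Grpr. Of those 7, Cyp51 and Msmo1 also had promoters here, with CCAAT and without CACGTG, and are not shown. The stretches are parts of the promoters, and matches outside them, such as CCAAT at -216 of Insig1, are left out. Each stretch is written 5′ to 3′ on the gene's strand, upstream of the start site, with matches to any of the 3 motifs in capitals (ATTGG is CCAAT on the other strand).
Hmgcs1 (chr13:119690101-119690350, + strand): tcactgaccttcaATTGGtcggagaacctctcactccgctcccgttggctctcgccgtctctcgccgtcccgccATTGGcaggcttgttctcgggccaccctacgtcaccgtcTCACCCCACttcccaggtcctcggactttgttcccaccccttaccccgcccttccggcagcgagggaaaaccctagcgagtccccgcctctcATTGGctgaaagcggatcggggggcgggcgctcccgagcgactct
Insig1 (chr5:28071212-28071352, + strand): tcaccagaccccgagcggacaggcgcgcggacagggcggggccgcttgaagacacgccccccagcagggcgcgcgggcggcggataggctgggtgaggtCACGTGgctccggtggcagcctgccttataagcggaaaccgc
Hsd17b7 (chr1:169969245-169969405, − strand): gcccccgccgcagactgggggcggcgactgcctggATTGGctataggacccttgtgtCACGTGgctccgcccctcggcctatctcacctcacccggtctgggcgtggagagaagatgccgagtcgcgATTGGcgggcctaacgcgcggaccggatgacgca
Srebf2 (chr15:82147069-82147179, + strand): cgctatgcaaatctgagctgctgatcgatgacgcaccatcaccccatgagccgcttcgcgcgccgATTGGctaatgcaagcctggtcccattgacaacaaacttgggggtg
Mvk (chr5:114444079-114444268, + strand): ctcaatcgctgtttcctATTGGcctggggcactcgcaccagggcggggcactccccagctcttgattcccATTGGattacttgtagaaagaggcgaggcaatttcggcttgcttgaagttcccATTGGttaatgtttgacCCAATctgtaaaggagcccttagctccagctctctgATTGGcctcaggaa
Abca1 (chr4:53159896-53160075, − strand): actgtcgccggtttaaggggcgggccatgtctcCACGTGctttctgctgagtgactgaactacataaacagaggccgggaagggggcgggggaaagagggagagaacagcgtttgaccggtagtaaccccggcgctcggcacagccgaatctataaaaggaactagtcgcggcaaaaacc

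At rest the fatty acid genes had the highest summed level of the groups of roles in every line, although not each of them was high. Acaca had the lowest mean of the 8 over all libraries (30.5 TPM). In mock libraries Scd2, a stearoyl-CoA desaturase, led every line, with a mean of 2503 TPM in 1057, 1870 in 1064, 1426 in 1181-Ctrl, 1326 in 1181-Grpr and 1072 in 1014-Grpr, and 1308 in the other 2 mock libraries of 1014-Ctrl once the discordant one was left out. Scd1 came next in 1057 (666 TPM), 1064 and 1014-Grpr, and Acly, the ATP citrate lyase that supplies acetyl-CoA, in 1181-Grpr (602 TPM) and 1181-Ctrl (604). In 1014-Ctrl, again without the discordant library, Srebf2 came next (388 TPM), not a fatty acid gene. Among the mevalonate enzymes Hmgcs1, which makes HMG-CoA, was highest over all libraries (mean 299.6 TPM), Cyp51, the lanosterol demethylase, among the sterol enzymes (221.4), Srebf2 among the regulators (309.2) and Abca1 among the exporters (76.8). Fdps, the farnesyl diphosphate synthase, was the lowest of the mevalonate genes (7.84 TPM), but 91.4% of its transcript recurs at 95% identity or more in other annotated genes, as does 65.6% of Acat2, 64.3% of Acaca, 54.7% of Fdft1 and 33.3% of Idi1, so the counts of these 5 are uncertain. Abcg1 spanned the widest range, from 7.52 to 7.90 TPM in mock 1057 libraries through 1.35 to 4.70 in 1064 to under 1 in 1181-Grpr and 1181-Ctrl, and was listed at 0 in all mock 1014-Grpr libraries.

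**Figure D1:**
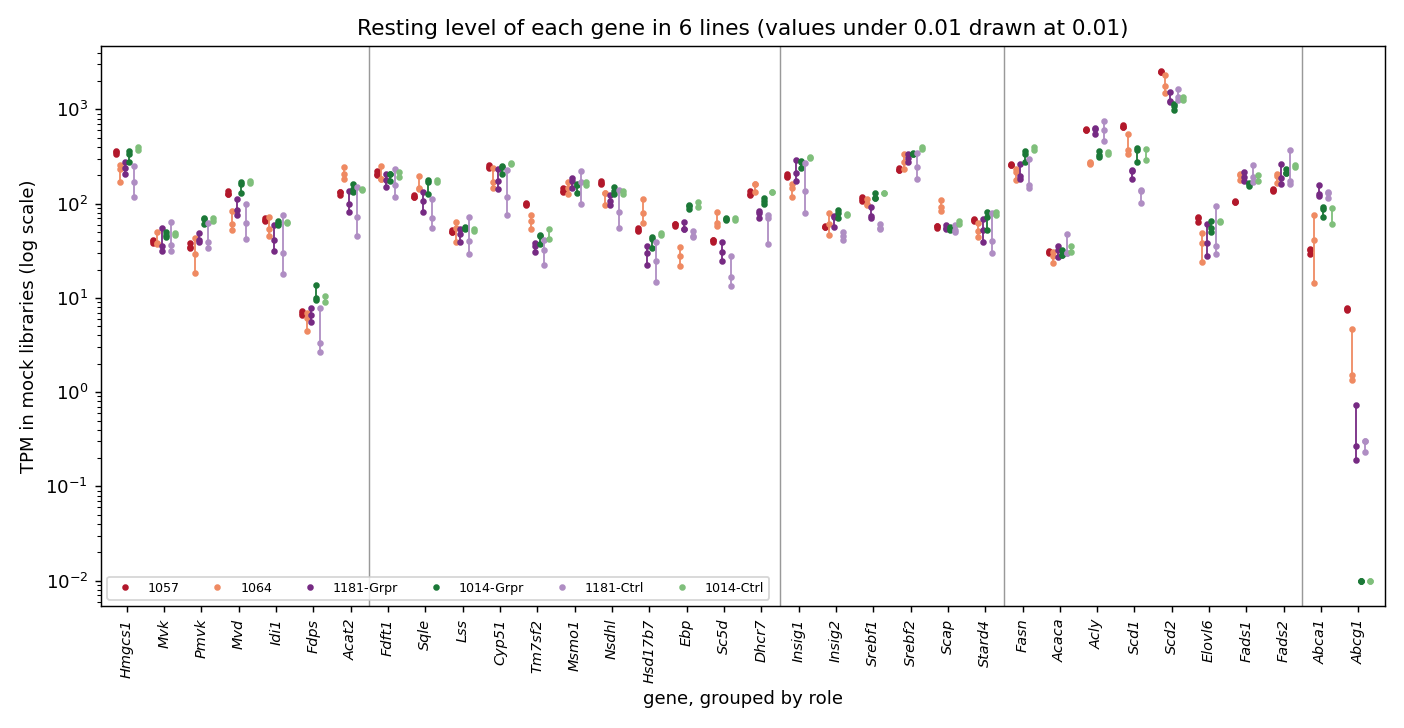
Level of each of the 34 genes in mock libraries, in TPM on a log scale, with 1 point per library and a line from the lowest to the highest; genes are grouped by role and the library labelled 1014-Ctrl mock 2 is left out. Scd2 stands above all others in each line, and Abcg1 falls from about 7.7 TPM in 1057 to the bottom of the axis in the 1014 lines.

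The 2 lines with Tyr::CreA/° differed at rest in about the share of members seen over all genes. Between mock 1057 and mock 1064, 12 members were higher in 1057 and 8 lower at an adjusted p under 0.05 (edgeR quasi-likelihood test, adjusted over all genes), where 30.7% of all genes were higher and 30.6% lower. Past 1 on the log2 scale were Acly (1.20 ± 0.10, SE, higher in 1057), Ebp, a sterol isomerase (1.13 ± 0.145), and Abcg1 (1.66 ± 0.71). The desaturase Fads1 was lower in 1057 by 0.88 on the log2 scale (log2 difference -0.88 ± 0.10), and Scap (-0.71 ± 0.16) and Sc5d, a late sterol desaturase (-0.71 ± 0.13), were also lower. The vector pairs differed less. No member passed between mock 1014-Grpr and mock 1014-Ctrl (3.23% of genes did, 6 members at an unadjusted p under 0.05), and 1 passed without the discordant library. Without the 2 discordant libraries and with the replicate number as a block shared by both lines, 8 were lower in 1014-Grpr, against 4.88% of genes. Between mock 1181-Grpr and mock 1181-Ctrl, 3 members were higher (9.20% of genes were), namely Scd1 (0.79 ± 0.19), Insig2 (0.61 ± 0.16) and Srebf1 (0.51 ± 0.16), and this count was 0 without replicate 3 and 1 without replicate 1. Without the discordant libraries and with the same kind of shared block 12 were higher, against 20.2% of genes. Besides the vector, 1181-Grpr and 1181-Ctrl differed in Xist and Dct, and the part of this in these counts was not tested. Whether same-numbered libraries of different lines belong together was not tested.

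Most genes of sterol synthesis rose with GRP in line 1057. Of the 34 genes 18 were higher with GRP than with mock and 8 lower, that is 52.9% and 23.5%, against 25.7% and 26.9% of all 14195 genes tested. The median log2 fold change of the members was 0.15, and that of all genes was -0.01. The members that rose lay mostly in the synthesis of cholesterol, with 5 of 7 mevalonate genes, 8 of 11 squalene and sterol genes and 4 of 6 regulators, whereas 1 of 8 fatty acid genes rose and 4 fell, and both exporters fell. One member, Abcg1, passed a fold change of 2 in either direction (1.50% of genes fell by as much). A single fit of all 72 libraries, which shares 1 estimate of spread among the lines, called 2 members here and none in the other 3 comparisons within 1057 below.

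Hsd17b7, which encodes a keto-reductase of late sterol synthesis (chr1:169949535-169969241, − strand, GRCm38), rose the most. It stood at 84.5, 77.3 and 78.4 CPM (counts scaled to library size within the line) in the mock libraries of 1057 and at 148.4, 146.3 and 145.9 with GRP (log2 fold change 0.87 ± 0.035, SE, adjusted p = 3.19e-13). Pmvk, which phosphorylates mevalonate phosphate, moved from 18.1, 19.3 and 17.2 to 30.9, 35.5 and 32.5 CPM (0.86 ± 0.058). In both genes every GRP library lay above every mock library. Msmo1, the C4 methylsterol oxidase, moved from 275.2, 242.2 and 243.9 to 416.8, 407.2 and 417.5 CPM (0.71 ± 0.043). Hmgcs1, at the head of the pathway, moved from 351.6, 324.5 and 332.9 to 478.1, 461.3 and 473.7 CPM (0.49 ± 0.033). Cyp51 moved from 341.5, 314.6 and 317.0 to 442.6, 451.9 and 455.0 CPM (0.47 ± 0.031). The groups did not overlap in any of these 3 genes either. Idi1 (isopentenyl diphosphate isomerase) and Fdps each rose by 0.61, and Sqle, the squalene epoxidase that limits the flux into sterols, by 0.48.

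Smaller rises were those of Sc5d by 0.44, Lss, the lanosterol synthase, by 0.35, Mvd by 0.34, and Fdft1, the squalene synthase, and Dhcr7, the last reductase, by 0.29 each. The steps that did not pass were Acat2 (0.05 ± 0.036), Nsdhl (0.03 ± 0.034), Ebp (0.07 ± 0.045) and Tm7sf2 (-0.03 ± 0.035). Mvk, the mevalonate kinase, went the other way, from 33.5, 30.6 and 31.9 to 27.0, 28.4 and 27.7 CPM (-0.21 ± 0.053, adjusted p = 0.00314). Its GRP libraries all lay below its mock libraries, although Pmvk, the next step, rose.

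Among the regulators Insig1, itself a target of SREBP, rose from 191.9, 180.5 and 173.7 to 239.5, 239.5 and 242.1 CPM (0.40 ± 0.033), Stard4, a sterol carrier, by 0.22, Srebf2 by 0.20 and Insig2 by 0.09. Scap fell by 0.15 on the log2 scale, and Srebf1 did not pass (-0.02 ± 0.032). The Srebf2 libraries were at 345.6, 349.3 and 336.0 CPM with mock and 393.1, 393.0 and 397.5 with GRP. Of the fatty acid genes Scd1 alone rose, from 1004, 942.4 and 931.1 to 1269, 1283 and 1229 CPM (0.39 ± 0.033), while its neighbour Scd2 fell from 4193, 4019 and 3978 to 3654, 3638 and 3580 CPM (-0.16 ± 0.031). The 2 desaturase genes thus moved apart in the same libraries. Acaca, the acetyl-CoA carboxylase of the cytosol, fell by 0.22, Fads1 by 0.13 and Acly by 0.09 on the log2 scale, and Fasn (0.06 ± 0.026), Elovl6 (-0.10 ± 0.042) and Fads2 (-0.05 ± 0.038) did not pass.

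Both exporters fell in 1057. Abcg1 (chr17:31057675-31117988, + strand, GRCm38) dropped from 9.75, 9.05 and 9.15 to 3.42, 3.25 and 3.24 CPM (-1.50 ± 0.080, adjusted p = 1.95e-11), the largest change of any member. Abca1 dropped from 92.4, 102.2 and 97.9 to 76.5, 74.8 and 75.4 CPM (-0.37 ± 0.036). In neither did a GRP library reach the lowest mock library.

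**Figure D2:**
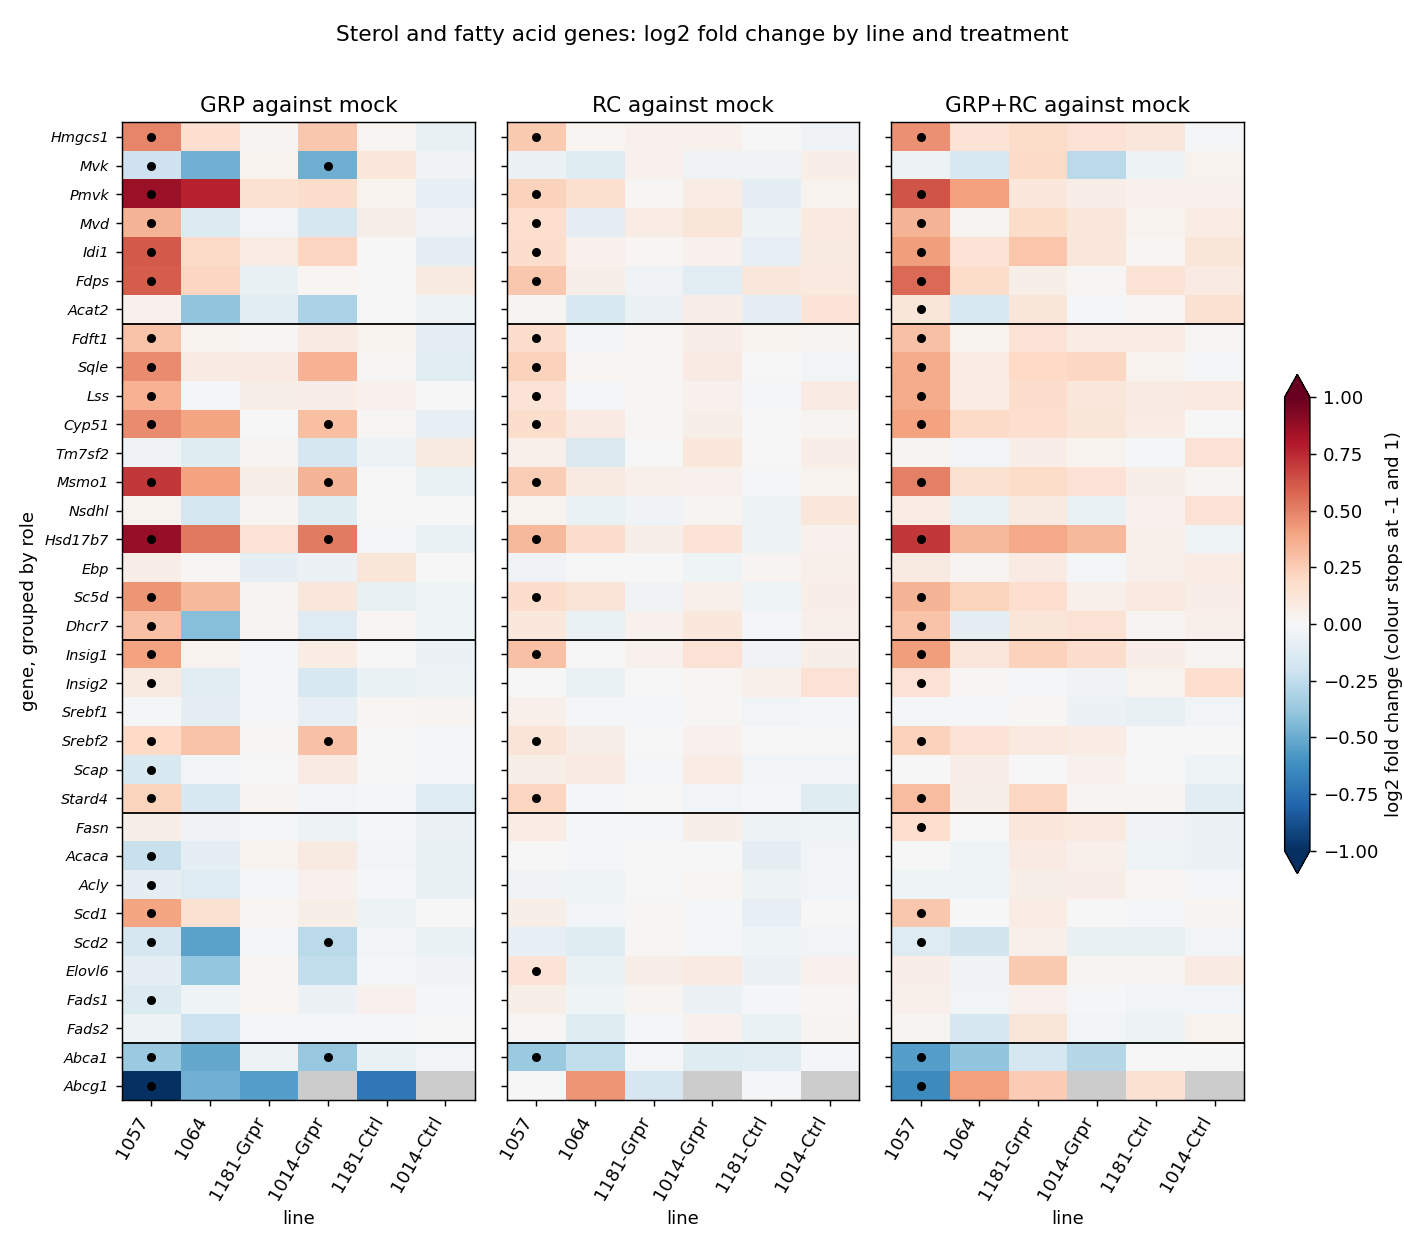
Log2 fold change of each gene (rows, grouped by role) against mock in the 6 lines (columns) for GRP, RC and GRP+RC, where black dots mark an adjusted p under 0.05, grey marks genes not tested and the colour stops at -1 and 1; the columns of 1181-Grpr and 1014-Ctrl leave out their discordant libraries. Dots mark 26 genes in the 1057 column under GRP, 17 under RC and 23 under GRP+RC, while 7 appear in 1014-Grpr under GRP and none in the other lines.

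With the antagonist alone, many of these genes also differed from mock in 1057. With RC against mock, 16 members were higher and 1 lower, against 13.0% and 11.3% of all genes. Elovl6 rose with RC (0.14 ± 0.042), and Dhcr7 (0.10 ± 0.040), Insig2 (-0.01 ± 0.035) and Scd1 (0.06 ± 0.033) did not pass. The comparisons of GRP, RC and GRP+RC with mock share the mock libraries. In the other lines no gene passed for RC against mock in the fits without a block. The labels give a DMSO content for mock only, and its part in these differences was not tested. With RC, Hsd17b7 stood at 100.3, 100.1 and 100.6 CPM (log2 fold change 0.32 ± 0.035), Msmo1 at 316.1, 287.7 and 300.4 CPM (0.25 ± 0.043) and Hmgcs1 at 415.6, 389.5 and 401.9 CPM (0.26 ± 0.033). Each of these groups lay between the mock and the GRP values. Insig1 reached 221.5, 225.8 and 220.2 CPM (0.29 ± 0.033). Abca1 fell as far with RC (75.1, 77.2 and 73.5 CPM, -0.37 ± 0.036) as with GRP. Abcg1 did not follow, with 9.17, 9.19 and 9.52 CPM, inside the mock range (-0.00 ± 0.068, adjusted p = 0.972).

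With both agents most genes of sterol synthesis were higher than with mock in 1057. GRP+RC against mock gave 20 members higher and 3 lower, where 21.3% of genes were higher and 22.9% lower, and the 20 included 6 of 7 mevalonate genes and 8 of 11 squalene and sterol genes. Compared with GRP alone, GRP+RC gave 7 members higher and 8 lower, against 11.0% and 13.7% of all genes, and 9 in all without replicate 2. Hsd17b7 came down to 126.6, 132.0 and 134.1 CPM (-0.17 ± 0.034 against GRP), Msmo1 to 359.4, 362.8 and 357.2 CPM (-0.20 ± 0.042), Pmvk to 28.5, 29.0 and 26.9 CPM (-0.23 ± 0.055) and Idi1 fell by 0.19 on the log2 scale. All stayed above their mock values. Hmgcs1 (454.2, 464.3 and 466.0 CPM, -0.03 ± 0.033 against GRP) and Insig1 (245.9, 239.4 and 243.8 CPM, 0.02 ± 0.033) did not differ from GRP alone beyond their spread. Acaca rose by 0.22 over GRP and Fads1 by 0.19, and neither passed against mock, while Scd2 (0.03 ± 0.031) and Acly (0.05 ± 0.032) did not pass against GRP. Abcg1 rose to 6.29, 5.58 and 6.04 CPM (0.86 ± 0.085 over GRP), between its GRP and mock values, whereas Abca1 dropped further, to 65.7, 67.3 and 66.6 CPM (-0.18 ± 0.037).

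**Figure D3:**
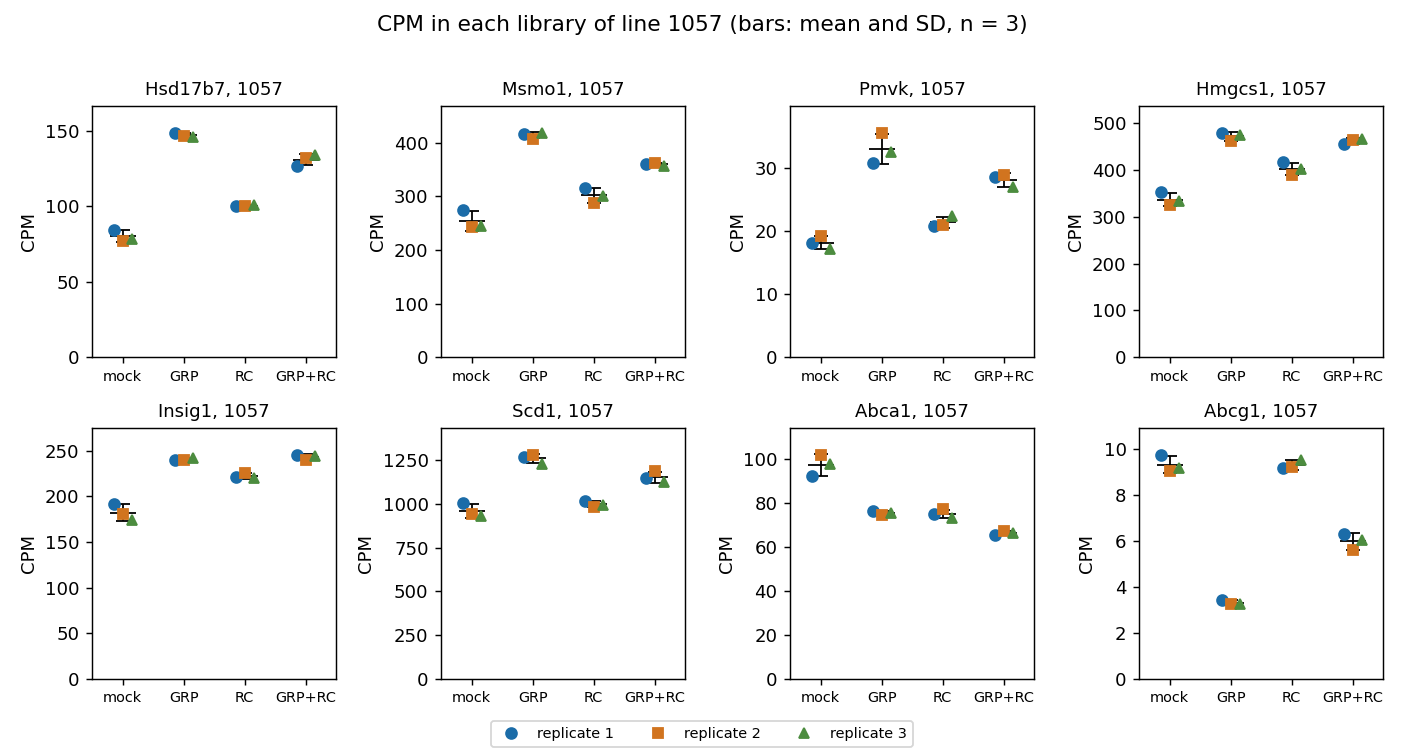
CPM of 8 genes in each library of line 1057 by treatment, with replicates 1 to 3 as circles, squares and triangles and bars for the mean and SD of 3 libraries. For Hsd17b7 the groups rise in steps from mock (77.3 to 84.5) through RC (100.1 to 100.6) and GRP+RC (126.6 to 134.1) to GRP (145.9 to 148.4), while Abca1 is lowest with GRP+RC and Abcg1 with GRP.

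In line 1014-Grpr, which carries the receptor from a vector, 4 members rose with GRP and 3 fell, against 16.3% and 12.7% of all genes, so neither count exceeded the background share (12.1% and 9.09% of the 33 measured members). These 7 genes were among the 26 of 34 members that passed in 1057 (52.6% of all genes did), each in the same direction. Replicate numbers here paired the libraries (correlation of deviations at least 0.386 in 18 of 18 same-numbered pairs), and with the number as a block 8 members rose and 10 fell, against 27.3% and 26.3% of genes. All 8 that rose with the block were among the 18 of 34 members that had risen in 1057 (25.7% of all genes did). The 10 that fell with the block included Mvd, Dhcr7 and Insig2, which had gone the opposite way, rising in 1057. In the fit without the block, 3 members passed without replicate 2, and likewise without replicate 3.

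Hsd17b7 stood at 61.7, 48.6 and 60.6 CPM in mock 1014-Grpr libraries and at 71.0, 85.7 and 88.2 with GRP (log2 fold change 0.52 ± 0.115, SE, edgeR adjusted p = 0.00505, and 5.17e-06 with the replicate block). Msmo1 moved from 279.3, 224.1 and 261.8 to 301.0, 303.6 and 365.7 CPM (0.34 ± 0.11), and Cyp51 from 310.6, 253.3 and 291.2 to 314.8, 347.1 and 392.7 CPM (0.30 ± 0.10). All GRP libraries lay above all mock libraries, but in replicate 1 the rises of Cyp51 and Msmo1 were small. Srebf2 moved from 477.8, 488.2 and 457.6 to 547.8, 631.6 and 566.7 CPM (0.29 ± 0.069). Mvk fell from 37.7, 33.3 and 33.8 to 25.6, 26.6 and 22.8 CPM (-0.49 ± 0.073). Scd2 fell from 1685, 1525 and 1670 to 1368, 1248 and 1423 CPM (-0.27 ± 0.075). Abca1 moved from 213.9, 257.4 and 256.6 to 203.1, 166.2 and 190.4 CPM (-0.38 ± 0.088). The blocked fit added Sqle (0.35 ± 0.050), Hmgcs1 (0.27 ± 0.057), Idi1 (0.21 ± 0.056) and Pmvk (0.18 ± 0.066) to those that rose, and Acat2 (-0.32 ± 0.044), Elovl6 (-0.25 ± 0.038), Tm7sf2, Mvd, Insig2, Dhcr7 and Nsdhl to those that fell.

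**Figure D4:**
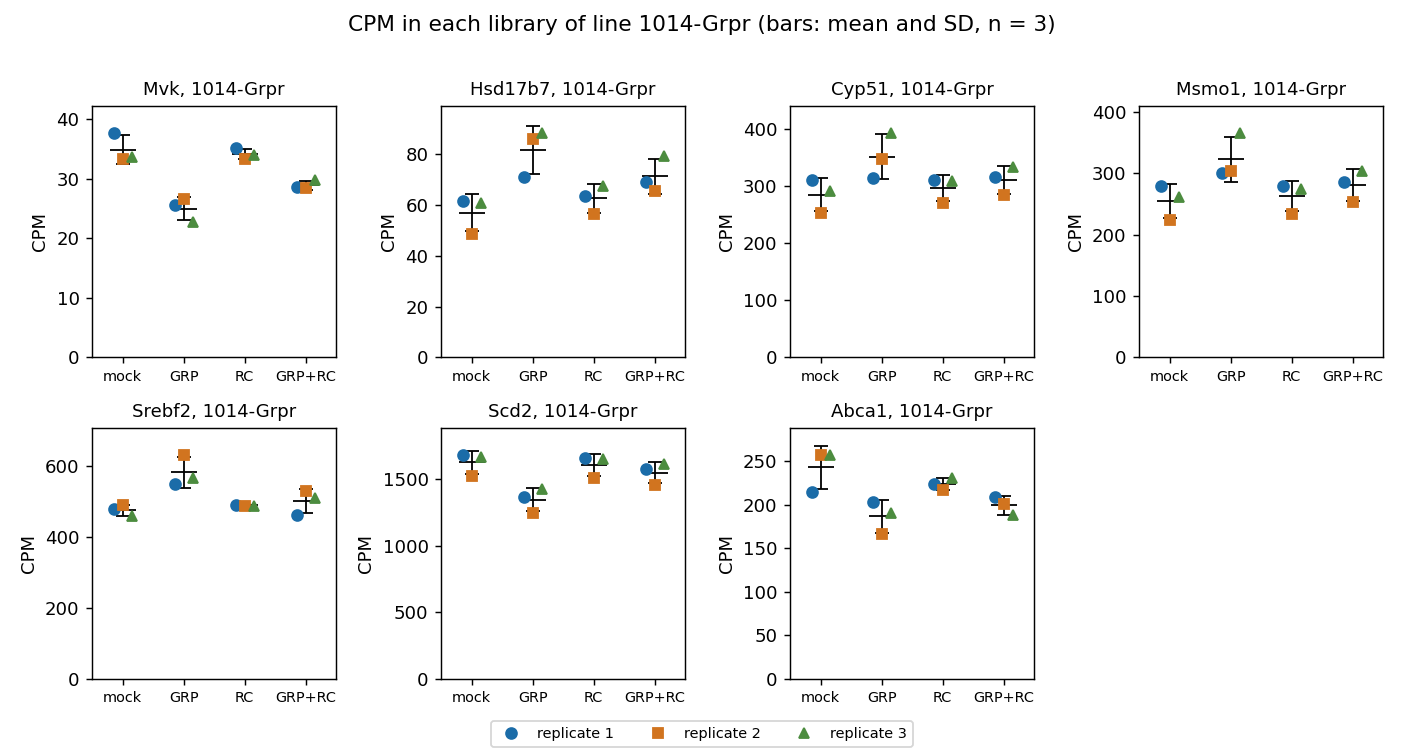
CPM of the 7 genes that passed with GRP in line 1014-Grpr, in each library by treatment, with replicates 1 to 3 as circles, squares and triangles and bars for the mean and SD of 3 libraries. In each panel the mean of the GRP+RC libraries lies between those of mock and GRP, although for Abca1 its replicate 3 library (187.4) is below the GRP library of that number (190.4), and Mvk drops from 33.3 to 37.7 with mock to 22.8 to 26.6 with GRP.

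With RC alone no member passed in 1014-Grpr, nor did any other gene (0% of genes; 0 members at an unadjusted p under 0.05, 0 with DESeq2, and 0 with the replicate block, where 6 were at an unadjusted p under 0.05). GRP+RC against GRP gave 1 member that rose (3.71% of genes), Dhcr7 by 0.28, and with the block 9 that rose and 5 that fell, against 17.0% and 21.7% of genes. In the blocked fit the 5 that fell were Srebf2 (-0.22 ± 0.043), Msmo1 (-0.20 ± 0.052), Hsd17b7 (-0.20 ± 0.071), Cyp51 (-0.18 ± 0.059) and Sqle (-0.14 ± 0.050). Elovl6 (0.27 ± 0.038), Acat2 (0.30 ± 0.045), Mvk (0.22 ± 0.062) and Scd2 (0.20 ± 0.031) were among the 9 that rose. This comparison shares the GRP libraries with that of GRP against mock.

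The control for the vector is 1014-Ctrl, in which no member passed with GRP (0% of genes did; 1 member at an unadjusted p under 0.05, and 0 with DESeq2), nor without the discordant mock library. The difference between the GRP effects of 1014-Grpr and 1014-Ctrl passed for Mvk alone (-0.61 ± 0.15, adjusted p = 0.00888), where 4.50% of genes had a lower effect in 1014-Grpr. Without the discordant mock library 4 members passed, a count given without its share of all genes. Without it and with the block, 10 members had a higher effect in 1014-Grpr and 5 a lower one, against 21.4% and 17.9% of genes. The largest were Hsd17b7 (0.56 ± 0.097), Sqle (0.40 ± 0.064), Cyp51 (0.37 ± 0.076), Msmo1 (0.37 ± 0.069) and Srebf2 (0.35 ± 0.054) on the higher side, and Mvk (-0.42 ± 0.083), Abca1 (-0.37 ± 0.10) and Scd2 (-0.22 ± 0.038) on the lower.

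In line 1064, which had the highest Grpr level, no member passed with GRP (6.38% of genes did; 2 members at an unadjusted p under 0.05, 2 with DESeq2 and 1 without replicate 3). Its replicate numbers paired the libraries closely (correlation at least 0.583), and with the block 6 members rose and 5 fell, against 20.5% and 23.0% of genes. The 6 were Pmvk (0.80 ± 0.18), Hsd17b7 (0.51 ± 0.11), Msmo1 (0.41 ± 0.071), Cyp51 (0.40 ± 0.11), Sc5d (0.32 ± 0.10) and Srebf2 (0.29 ± 0.050), all of which were among the 18 of 34 members that rose in 1057 (25.7% of all genes did). Scd2 (-0.60 ± 0.11), Mvk (-0.48 ± 0.085), Dhcr7 (-0.47 ± 0.088), Acat2 (-0.42 ± 0.11) and Fads2 (-0.22 ± 0.068) fell. The Hsd17b7 libraries with mock and GRP were 88.7 and 107.5 CPM in replicate 1, 116.2 and 211.9 in replicate 2, and 174.4 and 226.1 in replicate 3. It rose within each number while the groups overlapped. Scd2 fell within each number, from 2693 to 1294, 2322 to 1733 and 3881 to 3107 CPM. Dhcr7 fell from 211.8 to 120.2, 270.3 to 220.7 and 285.5 to 229.8 CPM, the opposite direction to 1057.

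No member differed in its GRP effect between 1057 and 1064 in the fit without a block (1.30% of genes did, 3 members at an unadjusted p under 0.05, smallest adjusted p = 0.287). With the block 11 members had a higher effect in 1057 and 1 a lower one, against 9.37% and 7.26% of genes, with Dhcr7 at 0.75 ± 0.097 and Abcg1 at -0.94 ± 0.22. Between 1057 and 1014-Grpr 7 members had a higher effect in 1057 and 2 a lower one, against 5.67% and 9.48% of genes. The 7 were Pmvk (0.67 ± 0.12), Fdps (0.57 ± 0.18), Mvd (0.50 ± 0.12), Dhcr7 (0.41 ± 0.096), Idi1 (0.38 ± 0.11), Sc5d (0.32 ± 0.081) and Lss (0.27 ± 0.073), and the 2 were Acaca (-0.33 ± 0.074) and Scap (-0.24 ± 0.073). Without replicate 1, and likewise without replicate 2, 5 members passed.

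In 1181-Grpr no member passed with GRP (0% of genes did, 0 members at an unadjusted p under 0.05 and 0 with DESeq2), and none did with the block and without the discordant library. In that blocked edgeR fit 7 members were at an unadjusted p under 0.05 (smallest adjusted p = 0.172). Of all genes 0.413% rose and 0.0406% fell in it. In 1181-Ctrl no member passed with GRP either (0% of genes, 0 members at an unadjusted p under 0.05 and 0 with DESeq2). With the block none passed there (0% of genes, 1 member at an unadjusted p under 0.05). Grpr in 1181-Grpr (12.4 to 123 TPM) lay below its range in the other 3 receptor lines, and its part in this result was not tested.

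The members varied with the replicate number in these 2 lines. In 1181-Ctrl 27 of the 34 members had all 4 replicate 1 libraries, whatever the treatment, above all 8 others, against 23.6% of all 14188 genes, and 21 had all 4 replicate 2 libraries below the rest, against 10.5%. Insig1 stood at 233.7 to 246.2 CPM in replicate 1, 68.9 to 85.7 in replicate 2 and 106.8 to 121.3 in replicate 3. Idi1 stood at 71.4 to 76.6, 17.7 to 22.9 and 26.8 to 30.1 CPM, a ratio of 3.67 between the highest and lowest replicate means. Hmgcs1 stood at 232.9 to 251.7, 111.0 to 131.9 and 140.3 to 158.3 CPM. None of these ranges overlap between numbers. Cyp51 (ratio 2.73), Acat2 (2.84), Stard4 (2.47) and Hsd17b7 (2.56) followed the same order.

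In 1181-Grpr, without its discordant library, replicate 1 was again highest for 23 of the 34 members (19.7% of all genes) and replicate 2 lowest for 24 (14.6%). Insig1 stood at 247.8 to 278.1, 157.5 to 163.4 and 182.1 to 197.1 CPM in replicates 1, 2 and 3. Elovl6, the fatty acid elongase, stood at 110.2 to 121.4, 52.2 to 56.6 and 66.2 to 71.9 CPM. Abca1 went against the synthesis genes, with 453.8 to 481.8 CPM in replicate 2 and 335.0 to 366.8 in the others. In 1064 replicate 3 was highest for 15 of 34 members (8.43% of genes), among them Scd1 (803.9 to 879.7 CPM against 428.4 to 586.7 in the others). Abca1 was lowest there in replicate 1, at 41.3 to 45.7 CPM, against 112.9 to 224.4 in the others. In 1057 no member separated by replicate number, and its same-numbered libraries did not deviate together (correlations from -0.154 to 0.11). The labels do not say what a replicate number stands for in any line, and its source was not tested.

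**Figure D5:**
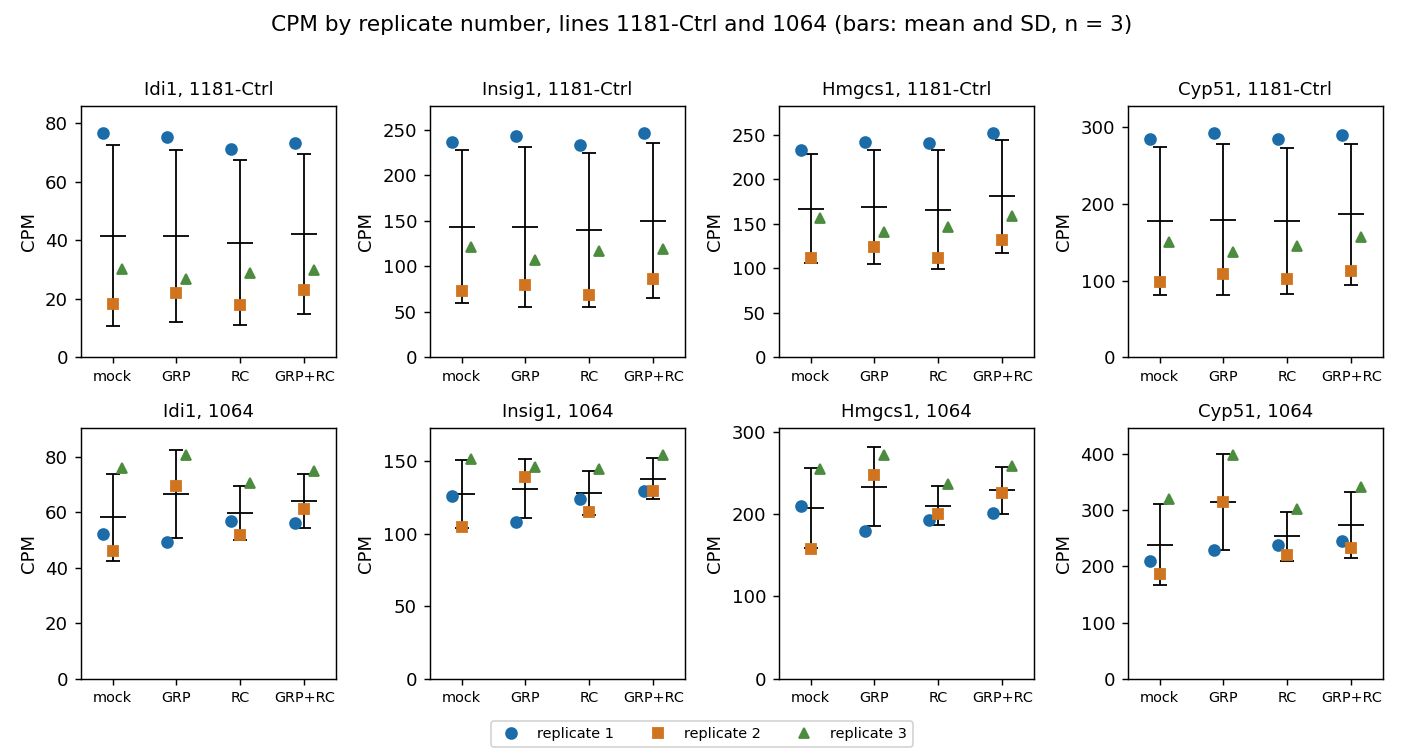
CPM of Idi1, Insig1, Hmgcs1 and Cyp51 in each library of 1181-Ctrl (top) and 1064 (bottom) by treatment, with replicates 1 to 3 as circles, squares and triangles and bars for the mean and SD of 3 libraries. In 1181-Ctrl the circles (replicate 1) sit alone at the top under every treatment, and in 1064 the triangles (replicate 3) are the highest of the 3 libraries within each treatment.

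Of 28 other lipid genes (supply of acetyl-CoA and NADPH, acyl-CoA activation, elongation, sterol esterification, transport and the proteases of SREBP), 12 rose and 5 fell with GRP in 1057 among 26 tested (25.7% and 26.9% of all genes), and 10 rose and 2 fell in 1014-Grpr among 27 (16.3% and 12.7% of all genes). With the replicate block 14 rose and 8 fell in 1014-Grpr, against 27.3% and 26.3% of genes. In 1064 1 of 27 rose, Soat1, which esterifies sterol (0.70), where 6.38% of genes passed, and with the block 9 rose and 4 fell, against 20.5% and 23.0%. None passed in 1181-Grpr, 1181-Ctrl or 1014-Ctrl. The largest changes in 1057 were Acacb, the mitochondrial acetyl-CoA carboxylase (1.01), from 2.51 ± 0.44 to 5.06 ± 0.30 CPM (SD, n = 3), and Nceh1, a hydrolase of cholesterol esters (0.92), from 175.9 ± 9.06 to 333.2 ± 4.66 CPM. In 1014-Grpr they were Acacb in the other direction (-0.83), from 15.5 ± 2.69 to 8.85 ± 2.40 CPM, Mid1ip1, an activator of that enzyme (0.74), and the acyl-CoA synthetase Acsl1 (0.72). Soat1 also passed in the other two, with 0.38 in 1057 and 0.52 in 1014-Grpr, and Mylip, a ubiquitin ligase that LXR raises and that degrades lipoprotein receptors, fell by 0.39 in 1057 and by 0.57 in 1014-Grpr on the log2 scale.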

How the data were processed

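Poly(A)-selected, stranded RNA-seq libraries of 72 samples were used. Per the labels and the study's methods, the authors aligned reads with STAR to mm10 (GRCm38.p5, GENCODE annotation) after FastQC 0.11.5 and deposited a table of raw counts per gene and a table of TPM values. The TPM columns of line 1057 use decimal commas, were read as such, and are otherwise of the same unit.

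Counts were tested with edgeR 4.0.16 in R 4.3.3 (quasi-likelihood F-test, TMM, filterByExpr), 1 fit per line over its 12 libraries, and 1 fit of 24 libraries for each pair of lines, with Benjamini-Hochberg adjustment over all genes tested and a threshold of 0.05. A second threshold was an absolute log2 fold change over 1. SE is the log2 fold change divided by the root of F. CPM values use the TMM factors of their line. TPM served to compare genes and resting lines. DESeq2 1.42.0 was an alternative. The tests were checked on simulated counts. Symbols were matched for 50376 of 50600 identifiers. Gene positions are from GENCODE M21 (GRCm38), a later release than the authors used. Overlap with other genes' transcripts was measured with blastn 2.17.0.

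Members and lists were chosen with earlier results of these data known. All 34 members are accounted for. Those that passed with GRP are named, with the highest of each role, those that passed in 2 receptor lines are given library by library, and of the other lipid genes at most 6 are named by size of change. Further genes were named after their values were seen.

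Same-numbered libraries of a line deviated together in 1064 (lowest correlation 0.583), 1014-Grpr (0.386) and 1181-Ctrl (0.74), and in 1181-Grpr (0.461) and 1014-Ctrl (0.354) without the 2 libraries that went against their labels, so the number paired them, but not in 1057 (-0.154). Replicates of a group were not copies of 1 library (lowest chi-square per degree of freedom 2.556). Precision depends on 3 libraries per group, and at 19512882 reads or more 3 reads correspond to at most 0.154 CPM.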

Additional observations from a re-analysis of the deposited data

Results flagged for a closer look

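The effect of GRP differed between lines for 10 results, by a test of the difference itself (edgeR quasi-likelihood test, adjusted over all genes). For Mvk the effect was lower in 1014-Grpr than in 1014-Ctrl, with a difference of -0.61 on the log2 scale. The difference was -0.42 without the discordant mock library of 1014-Ctrl and with the replicate block. Between 1057 and 1014-Grpr the effect was higher in 1057 for Pmvk (0.67), Fdps (0.57), Mvd (0.50), Dhcr7 (0.41), Idi1 (0.38), Sc5d (0.32) and Lss (0.27), and lower for Acaca (-0.33) and Scap (-0.24). Fdps, Idi1 and Acaca share much of their sequence with other annotated genes.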

How the results depend on the processing

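Of 297 alternative values of the log2 fold changes of members that passed with GRP, none changed sign, 215 remained past the threshold and 82 did not, of which 32 under a required fold change of 2 and 31 under a single fit of all 72 libraries. Of 303 alternative counts of members, 251 lay within 1.5 times the reported one, where a 0 that stayed 0 was included. The reported count was 0 in every within-line comparison of 1064, 1181-Grpr, 1181-Ctrl and 1014-Ctrl, so the 251 say little about counts above 0. Required to pass a fold change of 2 as well, the counts were 1 for GRP, 0 for RC, 0 for GRP+RC against mock and 0 for GRP+RC against GRP in 1057, 0 and 0 for GRP and for GRP+RC against GRP in 1014-Grpr, 0 for the 1014-Grpr minus 1014-Ctrl and 1057 minus 1014-Grpr differences, 0 for resting 1181-Grpr against 1181-Ctrl and 3 for resting 1057 against 1064. The single fit of all 72 libraries gave 2, 0, 0 and 0 in 1057 in that order, 1 for GRP in 1064, 0 and 0 in 1014-Grpr, 0 for both differences and 11 for resting 1057 against 1064, and the cause was not tested. DESeq2 gave 2 for GRP in 1064 and 2 for GRP+RC against GRP in 1014-Grpr. These alternative counts are given without shares of all genes, so they are not set against the background.

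With the replicate block the counts were 11 for GRP and 5 for GRP+RC against GRP in 1064, 18, 14 and 7 for GRP, GRP+RC against GRP and GRP+RC against mock in 1014-Grpr, 3 for 1014-Grpr minus 1014-Ctrl, 12 for 1057 minus 1064, 20 for 1057 minus 1014-Grpr and 3 for resting 1014-Grpr against 1014-Ctrl. Shares of all genes not given above follow, higher then lower. For GRP+RC against GRP in 1064 they were 10.3% and 10.9% (4 and 1 members). GRP+RC against mock in 1014-Grpr had 10.1% and 7.21% (5 and 2). For 1014-Grpr minus 1014-Ctrl they were 14.8% and 11.9% (1 and 2), and for 1057 minus 1014-Grpr 11.3% and 16.9% (17 and 3). For the resting pair, with a block shared by both lines, they were 3.11% and 4.93% (0 and 3). In 1057, where the numbers did not pair the libraries, the block gave 27 for GRP and 15 for GRP+RC against GRP. There 25.9% and 27.1% of all genes were higher and lower with GRP, and 11.2% and 14.1% with GRP+RC against GRP. Without the 2 discordant libraries the counts were 4 for 1014-Grpr minus 1014-Ctrl and 1 for resting 1014-Grpr against 1014-Ctrl, and with the block as well 15, 8, 12 for resting 1181-Grpr against 1181-Ctrl and 3 for GRP+RC against GRP in 1014-Ctrl. The 3 in 1014-Ctrl, a line without the receptor vector, all rose, against 0.445% of all genes. In that fit 17 members were at an unadjusted p under 0.05. These fits without the 2 libraries were planned for the within-line comparisons and added after seeing the data for those between lines.

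Leaving out each replicate number in turn gave 9 to 14 members for GRP+RC against GRP in 1057, 0 to 1 for GRP in 1064, 3 to 5 for GRP in 1014-Grpr, 0 for GRP+RC against GRP in 1014-Grpr, 0 to 2 for 1014-Grpr minus 1014-Ctrl, 0 to 1 for 1057 minus 1064, 5 to 9 for 1057 minus 1014-Grpr and 0 to 2 for resting 1181-Grpr against 1181-Ctrl. No share of all genes is given for these counts, so they are not set against the background. With 3 libraries per group, and large differences between replicate numbers in 1064, 1181-Grpr and 1181-Ctrl, a member that did not pass there is not shown to be unaffected.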
